A study of Homo sapiens with 12 samples.

Results

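The PI3K-AKT-mTOR pathway was followed through 29 genes, taken by name from the deposited expression tables, in which 59490 features carry a name that occurs a single time. All 29 names were found in both tables. They code for the catalytic and regulatory subunits of phosphoinositide 3-kinase, the kinases AKT1, AKT2 and PDPK1, the mTOR complexes, the TSC complex with RHEB, lipid and protein phosphatases, and targets of AKT or mTOR. The 12 sequenced libraries held polyadenylated RNA from OCI-LY1, a line from a human diffuse lymphoma of large B cells. The groups were OCI-LY1R cells given 1 µM decitabine, OCI-LY1R cells given vehicle (DMSO), parental OCI-LY1 cells given 1 µM decitabine and parental cells given vehicle, each for 3 days and with 3 libraries. OCI-LY1R is a venetoclax-resistant derivative of the parental line, selected with rising concentrations of that BCL2 inhibitor up to 1 µM. Decitabine is a nucleoside analogue that inhibits DNA methyltransferases. The labels describe 1 resistant derivative and do not say whether the libraries came from separate cultures, so the spread behind each p-value is that between libraries and may be technical. Resistant libraries have letters (a, b, c) in place of numbers, because their columns could be matched to a treatment but not to a numbered sample.

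Phosphoinositide 3-kinase phosphorylates a membrane lipid downstream of receptors such as the B-cell receptor, and the product recruits PDPK1 and AKT to the membrane. AKT phosphorylates FOXO transcription factors, which keeps them out of the nucleus, and inhibits the TSC complex, which lets the GTPase RHEB activate mTOR complex 1. mTOR complex 1 then phosphorylates RPS6KB1 and EIF4EBP1 and so promotes translation. In B cells the delta catalytic subunit and the lipid phosphatase INPP5D are the forms best known in receptor signalling, and FOXO1 is a factor of germinal-centre cells. The pathway is regulated largely by phosphorylation, which these libraries do not measure.

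Values are TPM, an abundance scaled for feature length and summing to 1000000 in each library. The depth behind them is unknown. Parental decitabine replicate 3 differed in kind from the remaining 11 libraries and is given apart. Features annotated as antisense made up 0.298% of its TPM, against 34.9% to 48.7% in the 11. Its protein-coding share was 89.4%, against 26.6% to 32.2%. The 11 B-cell markers summed to 4280 TPM in replicate 3. Their sum was 545 to 1106 TPM in resistant decitabine, 809 to 987 TPM in resistant vehicle, 630 and 815 TPM in the parental decitabine pair of replicates 1 and 2, and 1203 to 1968 TPM in parental vehicle libraries. CD37 alone had 810.04 TPM in replicate 3 and 361 to 1908 TPM in the 11 and made up most of the sums in the 11. MS4A1, the gene of CD20, had 204 TPM in replicate 3 and was at 0 in 9 of the 11 libraries. The 5 T-cell markers summed to 7.46 TPM in replicate 3 and at most 1.09 TPM in the 11 libraries, and the 4 myeloid markers to 0.34 TPM and at most 1.39 TPM. The 4 epithelial or stromal markers summed to 1.77 to 22.4 TPM in resistant decitabine, 0 to 2.98 TPM in resistant vehicle, 0.53 and 0.68 TPM in parental decitabine 1 and 2 and 0 to 0.56 TPM in parental vehicle libraries, and to 36.2 TPM in replicate 3. The part of these marker differences in the comparisons was not tested.

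In the 11 libraries the pathway was largely at low values. Averaged over them, 11 of the 29 genes reached 1 TPM, 8 reached 5 TPM and 18 stayed under 1 TPM. In RNA from many cells, fewer cells with a transcript and less of it per cell cannot be told apart. Only 11 genes were above 0 in each of the 11 libraries, and PIK3R5 and RICTOR were listed at 0 in all 11. The summed level of the 29 genes was 1363 TPM in replicate 3, against 174 to 251 TPM in the 11 libraries. All 29 were above 0 in replicate 3, 27 of them at 1 TPM or more, and 25 were higher there than in any other library. Such a contrast was not particular to the pathway. The ribosomal protein gene RPS6 averaged 4.34 TPM in the 11 and had 1854 TPM in replicate 3. The B-cell marker CD79A averaged 6.31 TPM and had 1491 TPM, while CD37 averaged 883 TPM and had 810 TPM. The counting strand is not given. Whether a gene's value in the 11 comes from its own strand was not tested.

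**Figure D1:**
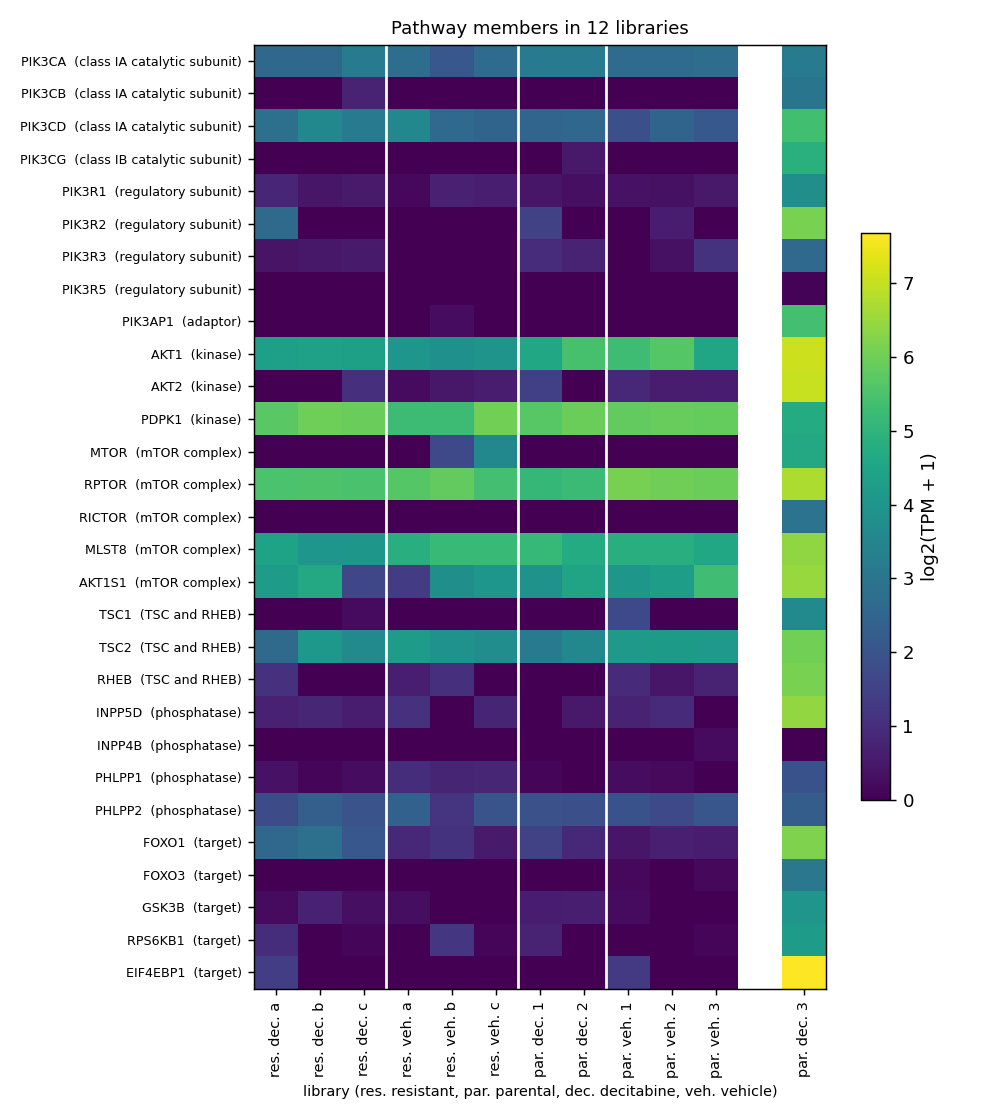
Level of each pathway gene (rows, with its role) in each library (columns) as log2(TPM + 1), with parental decitabine replicate 3 set apart at the right. The 27 genes at 1 TPM or more in replicate 3 contrast with 9 to 13 such genes in each other library.

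Among the catalytic subunits, replicate 3 listed PIK3CD, the delta form of leukocytes, highest at 39.5 TPM. PIK3CG, the gamma form activated by G-protein-coupled receptors, was at 28.3 TPM, the alpha gene PIK3CA at 7.95 TPM and the beta gene PIK3CB at 6.92 TPM. That order was not seen in the other libraries. PIK3CD was at 2.65 to 10.9 TPM and PIK3CA at 3.21 to 8.17 TPM in the 11, while PIK3CG was listed at 0 in all but parental decitabine 2 (0.43 TPM) and PIK3CB in all but resistant decitabine c (0.71 TPM).

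Among the regulatory genes, replicate 3 listed PIK3R2 at 69.4 TPM, PIK3R1 at 12.9 TPM, PIK3R3 at 5.21 TPM and PIK3R5, the partner of the gamma form, at 0.063 TPM. Outside replicate 3, PIK3R2 had 5.28 TPM in resistant decitabine a, 1.86 TPM in parental decitabine 1 and 0.53 TPM in parental vehicle 2 and was listed at 0 in the other 8. PIK3R3, a shorter regulatory subunit, was listed at 0 in the 3 resistant vehicle libraries and at 0.34, 0.40 and 0.48 TPM in resistant decitabine a, b and c, all too low to be tested. PIK3R1, which stabilises and restrains the catalytic subunits, was at 0.13 to 0.76 TPM there. PIK3AP1, the adaptor that links the B-cell receptor to the kinase, was at 40.8 TPM in replicate 3 and above 0 in only 1 of the 11 libraries, resistant vehicle b, at 0.19 TPM. None of the 5 genes of this group thus reached a mean of 1 TPM in the 11 libraries.

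AKT1 and AKT2 were at nearly the same level in replicate 3, at 135 and 129 TPM. In the 11 libraries AKT1 was at 13.5 to 49.4 TPM and AKT2 at 0 to 1.76 TPM, so their listed values differed widely there. A gene on the other strand overlaps exons of AKT1 but not of AKT2. That gene was listed at 0 in all 11 libraries and at 0.24 TPM in replicate 3, and its part in this contrast was not tested. AKT2 was at 0, 0 and 1.04 TPM in resistant decitabine a, b and c and at 0.16, 0.40 and 0.54 TPM in resistant vehicle a, b and c. It was at 1.76 and 0 TPM in parental decitabine 1 and 2 and at 0.84, 0.54 and 0.49 TPM in parental vehicle 1, 2 and 3, with no separation in either line. PDPK1, which phosphorylates the activation loop of AKT, had 25.3 TPM in replicate 3, against 37.2 to 64.8 TPM in the 11, where its mean of 54.1 TPM was the highest of the 29 genes and RPTOR followed with 49.2 TPM. In single libraries the order of PDPK1 and RPTOR varied. PDPK1 (chromosome 16, 2537964 to 2603188, GRCh38) has a near-identical copy nearby, so its assignment is uncertain.

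For the mTOR complexes, replicate 3 listed the mTOR complex 1 scaffold RPTOR at 106 TPM, the mTOR complex 1 inhibitor AKT1S1 at 88.9 TPM, the shared subunit MLST8 at 84.1 TPM, the kinase MTOR itself at 24.0 TPM and the mTOR complex 2 scaffold RICTOR at 6.53 TPM. In the 11 libraries RPTOR was at 33.4 to 67.7 TPM, MLST8 at 15.3 to 36.1 TPM and AKT1S1 at 1.58 to 38.8 TPM. MTOR was listed at 0 in 9 of the 11. The complexes therefore lacked a listed value for their kinase in most libraries that listed the scaffold of mTOR complex 1.

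TSC2, the GTPase-activating subunit of the TSC complex, had 64.2 TPM in replicate 3, against 5.24 to 18.0 TPM elsewhere. Its partner TSC1 had 11.7 TPM in replicate 3, 2.25 TPM in parental vehicle 1 and 0.18 TPM in resistant decitabine c and was listed at 0 in the other 9. RHEB, the GTPase that TSC2 acts on, had 69.7 TPM in replicate 3, against 0 to 1.15 TPM elsewhere. Of this branch only TSC2 could therefore be followed in the 11 libraries.

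Among the phosphatases INPP5D stood highest in replicate 3, at 85.8 TPM, against 0 to 1.14 TPM in the 11 libraries. PHLPP2, which dephosphorylates AKT, had 3.81 TPM in replicate 3, within its range of 1.29 to 4.22 TPM in the 11, where it was the highest phosphatase gene. Its relative PHLPP1 had 2.82 TPM in replicate 3, against 0 to 0.99 TPM elsewhere. INPP4B, which acts on a later lipid product, had 0.02 TPM in replicate 3 and 0.16 TPM in parental vehicle 3 and was listed at 0 in the other 10, so every library listed it at or near 0.

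Of the targets, replicate 3 listed the translational repressor EIF4EBP1 at 203 TPM, FOXO1 at 72.5 TPM, the ribosomal S6 kinase gene RPS6KB1 at 17.5 TPM, the kinase gene GSK3B, whose product AKT inhibits, at 15.2 TPM and FOXO3 at 7.24 TPM. FOXO3 has a near-identical copy and its assignment is uncertain. It was listed at 0 in all of the 11 but parental vehicle 1 and 3 (0.11 and 0.12 TPM). FOXO1 was the only target to average 1 TPM or more there, at 0.38 to 6.07 TPM. The other 4 targets did not exceed 1.61 TPM in any of the 11.

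Most genes measured in the 11 libraries lie opposite another gene. In the GENCODE 29 annotation, exons of 13 of the 29 genes overlap exons of a gene on the other strand, and exons of 16 do not. Of the 13 with such an overlap, 10 averaged 1 TPM or more in the 11 libraries, and of the 16 without it 1 did, which was FOXO1. The median over genes of the 11-library mean was 5.99 TPM with the overlap and 0.31 TPM without it. In replicate 3 the medians were 25.3 and 22.9 TPM. The 3 overlapped genes under 1 TPM were RICTOR, TSC1 and INPP4B. The library class and the overlap thus moved with the listed level, and their part in the comparisons that follow was not tested.

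**Figure D2:**
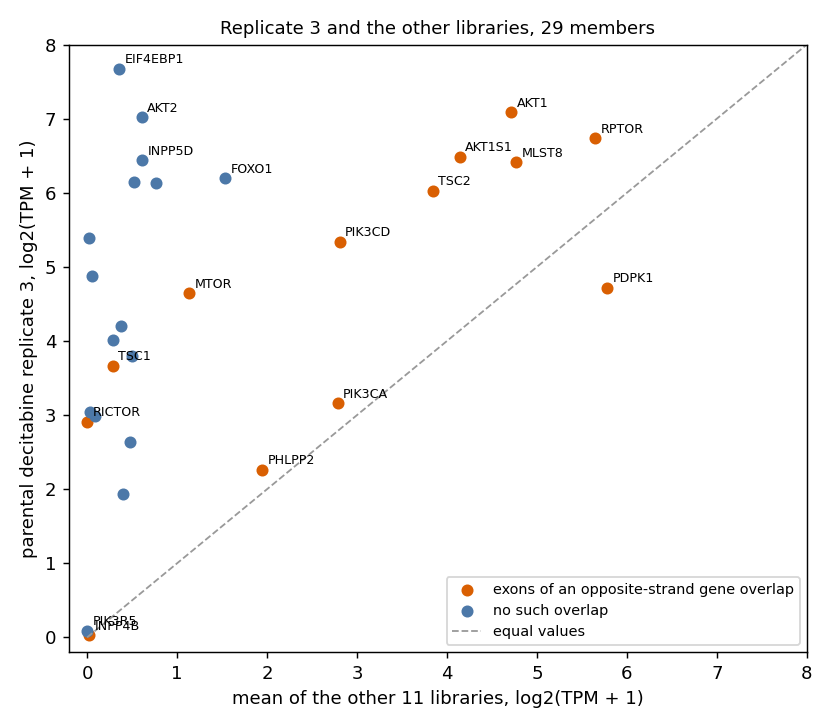
Level of the 29 genes in parental decitabine replicate 3 (vertical axis) against the mean of the other 11 libraries (horizontal axis), both as log2(TPM + 1); orange points have exons overlapped by a gene on the other strand, blue points do not, and genes averaging over 1 TPM there and 7 others are labelled. Of the 16 genes without an overlap 1 averaged 1 TPM or more in the 11, and 10 of the 13 with one did.

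The extent of the overlap differed from gene to gene. It covered 35.8% of the exon length of PIK3CA, opposite the potassium channel subunit gene KCNMB3, and 23.7% of that of PDPK1, opposite 2 antisense features. For the other overlapped genes it was 0.81% to 11.01%. The larger one (chromosome 16, 2597881 to 2599718, minus strand), over 16.8% of the PDPK1 exons, was listed at 0 in replicate 3, against 188 to 294 TPM in the 11 libraries. The smaller one (chromosome 16, 2561471 to 2565096) had 1.83 TPM in replicate 3, against 3.97 to 13.9 TPM. BRICD5, which overlaps 3.79% of MLST8, had 4.77 TPM in replicate 3, against 37.0 to 70.4 TPM in the 11. MTOR-AS1, an antisense RNA over 1.82% of the MTOR exons, was at 16.1 to 30.9 TPM in 10 of the 11 libraries and listed at 0 in parental vehicle 2 and in replicate 3. For MTOR the feature with the listed value thus changed from the antisense RNA in most of the 11 to the gene in replicate 3. Another 3 opposite features lie against the end of RPTOR and averaged 12.9 to 82.1 TPM in the 11, and 1 lies against PHLPP2 and averaged 23.2 TPM. Of protein-coding opposite genes, CLSTN1 at PIK3CD averaged 29.8 TPM, TBC1D17 at AKT1S1 20.9 TPM and OSMR at RICTOR 6.14 TPM in the 11. In replicate 3 CLSTN1 had 225 TPM and TBC1D17 had 68.05 TPM, each above all of the 11 libraries. The feature opposite AKT1 was listed at 0 in all 11, so an overlapped gene could have a value where its opposite feature had none.

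**Figure D3:**
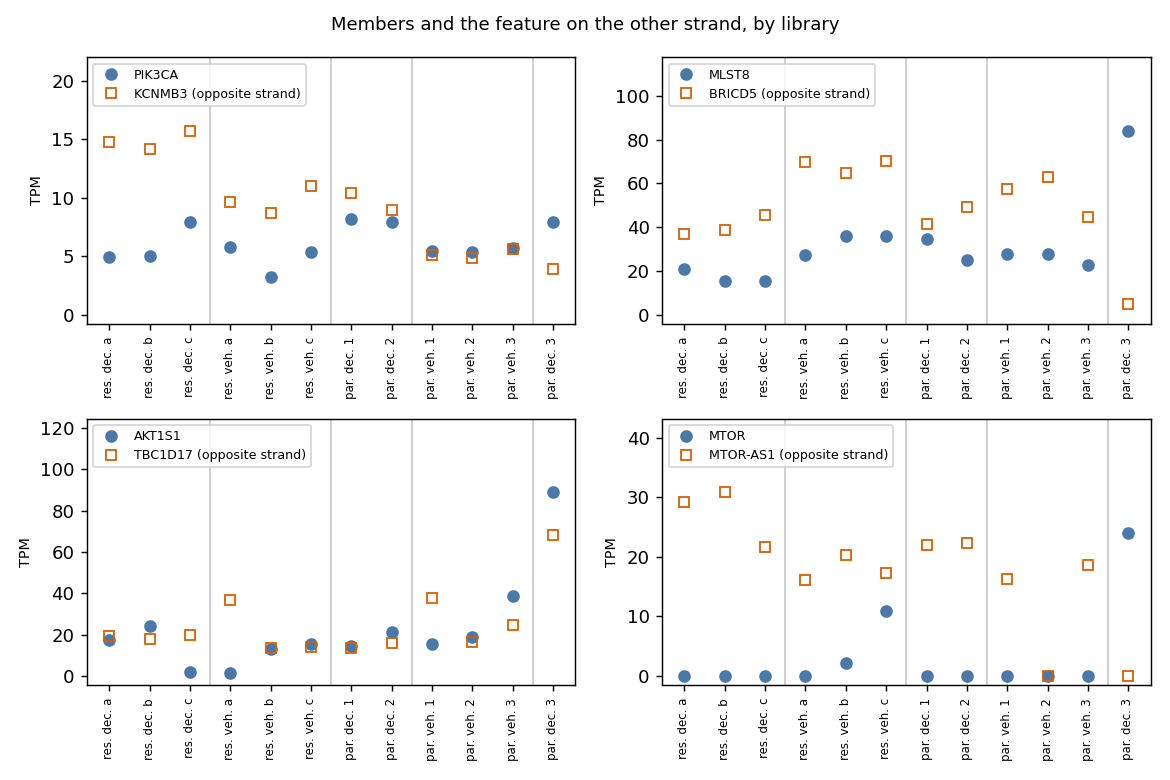
TPM of 4 pathway genes (filled circles) and of the feature on the other strand (open squares) in each library, by group, with parental decitabine replicate 3 at the right; res. is resistant, par. parental, dec. decitabine and veh. vehicle. BRICD5 and MTOR-AS1 are lowest or at 0 in replicate 3, where MLST8 (84.1 TPM) and MTOR (24.0 TPM) are highest.

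The effect of decitabine averaged over both lines asks which pathway genes changed with the drug on average. It does not test whether a change holds in each line. FOXO1 was the only member called, as a rise. It met the level filter given next through its resistant decitabine values. Each comparison used limma on log2(TPM + 1) for features averaging 1 TPM or more, and a call is a Benjamini-Hochberg adjusted p under 0.05 over all features tested. With line as a term, 10.4% of the 8505 features tested were called and 7.92% called as higher, so 1 of 11 tested members is near the background. An unadjusted p under 0.05 was reached by 3 of the 11 members (FOXO1, RPTOR and TSC2) and by 26.2% of all features. Of the 11, 7 had a positive log2 fold change, as did 64.5% of all features, and the members' median was 0.09 against 0.21 for all features.

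FOXO1 (chromosome 13, 40469953 to 40666597, minus strand) was at 4.95, 6.07 and 3.22 TPM in resistant decitabine a, b and c, against 0.83, 1.18 and 0.48 TPM in resistant vehicle a, b and c. In parental cells FOXO1 had 1.77 and 0.83 TPM in decitabine libraries 1 and 2, against 0.38, 0.59 and 0.53 TPM in vehicle replicates 1, 2 and 3. Decitabine libraries were above vehicle libraries of the same line without overlap in both lines, at levels far under the 72.5 TPM of parental decitabine replicate 3. Among all features tested, groups did not overlap for 28.4% in resistant and 39.4% in parental cells. In parental cells alone FOXO1 averaged under 1 TPM and was not tested. FOXO1 averaged 4.75 TPM in resistant decitabine, 0.83 TPM in resistant vehicle, 1.30 TPM in parental decitabine 1 and 2 and 0.50 TPM in parental vehicle. Its mean of 1.89 TPM over the 11 thus passed the filter of 1 TPM through the group where it was highest. The log2 fold change of FOXO1 over both lines was 1.17 (SE 0.28, 95% interval 0.54 to 1.80, limma adjusted p = 0.0293). FOXO1 has no annotated exon on the other strand, but whether its low values in the 11 libraries come from its own strand was not tested. The call was lost without resistant decitabine a, b or c (adjusted p = 0.0671, 0.0634 and 0.053), resistant vehicle a, b or c (0.0606, 0.0562 and 0.0626) or parental decitabine 1 (0.0601), and with replicate 3 included (0.467). It was also lost under quantile scaling (log2 fold change 0.74, adjusted p = 0.129) and with no filter (0.0834).

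Because decitabine inhibits methylation of CG dinucleotides, the 250 bases before the RefSeq start are shown for FOXO1 and for RPTOR, with each CG in capitals. RPTOR is shown because it had the smallest adjusted p of the members in parental cells without replicate 3 (0.0623), which did not pass the threshold. No methylation was measured. The FOXO1 window is chr13:40666642-40666891 on the minus strand and that of RPTOR is chr17:80544588-80544837 on the plus strand (GRCh38.p14).
FOXO1: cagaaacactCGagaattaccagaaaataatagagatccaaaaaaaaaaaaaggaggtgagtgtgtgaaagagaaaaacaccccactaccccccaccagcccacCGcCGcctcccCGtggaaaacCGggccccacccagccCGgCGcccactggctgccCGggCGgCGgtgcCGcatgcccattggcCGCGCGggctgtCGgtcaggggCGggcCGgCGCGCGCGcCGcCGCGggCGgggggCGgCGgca
RPTOR: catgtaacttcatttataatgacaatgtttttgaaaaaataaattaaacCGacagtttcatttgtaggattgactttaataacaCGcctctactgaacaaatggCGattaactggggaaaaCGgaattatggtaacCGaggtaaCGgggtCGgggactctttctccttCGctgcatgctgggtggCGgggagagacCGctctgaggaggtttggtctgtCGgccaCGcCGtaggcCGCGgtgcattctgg
The FOXO1 window holds 27 CG, a number that 17.7% of the 35116 RefSeq promoter windows reach or exceed, and the RPTOR window holds 15, which 42.9% reach or exceed. CG reads the same on both strands, and 93.9% of all windows hold at least 1. The 49 windows listed for 26 of the 29 genes hold 0 to 42, with a median of 17 against 11 for all windows.

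Decitabine against vehicle in resistant cells asks what the drug changed once cells tolerate venetoclax. No member was called among 11 tested, in a comparison that called 3.59% of 8579 features. An unadjusted p under 0.05 was reached by 2 of the 11 and by 19.8% of all features. AKT1, MLST8 and FOXO1 separated decitabine from vehicle libraries without overlap, which are 3 of 11 members, against 28.4% of all features. The members' median log2 fold change was 0.26 against 0.21 for all features.

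The log2 fold change of FOXO1 was 1.64 in resistant cells (SE 0.36, 95% interval 0.76 to 2.51, limma adjusted p = 0.0728). There too FOXO1 passed the filter through its decitabine libraries. MLST8 (chromosome 16, 2204248 to 2209416) was at 20.8, 15.3 and 15.6 TPM in decitabine a, b and c, against 27.5, 36.0 and 36.1 TPM in vehicle a, b and c (log2 fold change -0.91, SE 0.21, 95% interval -1.43 to -0.39, limma adjusted p = 0.085). All 3 decitabine libraries were under all 3 vehicle libraries. BRICD5, on the strand opposite MLST8, was also lower in each, at 37.0, 38.8 and 45.8 TPM with decitabine and 70.0, 64.8 and 70.4 TPM with vehicle (log2 fold change -0.75, SE 0.15, limma adjusted p = 0.0575). MLST8 and BRICD5 thus had the same sign in resistant cells, but in parental cells without replicate 3 the log2 fold change of MLST8 was 0.17 and that of BRICD5 -0.27. Over both lines BRICD5 fell (-0.53, limma adjusted p = 0.0395), a call lost in 11 of 17 alternatives, while MLST8 did not pass (-0.43, adjusted p = 0.261). The values of MLST8 are printed in full because of their separation, outside the rule for naming.

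AKT1 (chromosome 14, 104769349 to 104795751) averaged 19.6 ± 0.27 TPM with decitabine and 14.5 ± 1.00 TPM with vehicle (SD, n = 3 each). The log2 fold change of AKT1 was 0.41 (SE 0.17, 95% interval -0.0048 to 0.83, limma adjusted p = 0.258), against the 0.21 of all features. RPTOR averaged 44.4 ± 0.78 TPM with decitabine and 48.7 ± 7.497 TPM with vehicle (SD, n = 3 each), with overlapping groups. PDPK1 was at 51.2, 61.9 and 59.6 TPM with decitabine, against 37.2, 37.5 and 64.8 TPM with vehicle, where vehicle c exceeded all decitabine libraries. TSC2 was at 5.24, 16.0 and 11.7 TPM with decitabine, against 18.0, 13.95 and 12.7 TPM with vehicle, and the interval of its log2 fold change was -1.52 to 0.51. The values of PDPK1 and TSC2 thus overlapped between treatments. AKT1S1 ranged from 2.11 to 24.0 TPM with decitabine and from 1.58 to 15.5 TPM with vehicle, a spread that left an interval of -2.20 to 3.04 for its log2 fold change. PHLPP2 had 2.44, 4.002 and 2.86 TPM with decitabine, against 4.22, 1.29 and 2.94 TPM with vehicle, and its vehicle libraries enclosed all decitabine values. PIK3CD had 6.18, 10.9 and 7.93 TPM with decitabine, against 10.9, 5.21 and 4.60 TPM with vehicle. MTOR was listed at 0 in the 3 decitabine libraries and in vehicle a, and at 2.25 and 10.9 TPM in vehicle b and c, so 1 vehicle library shared the listed value of the decitabine libraries.

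**Figure D4:**
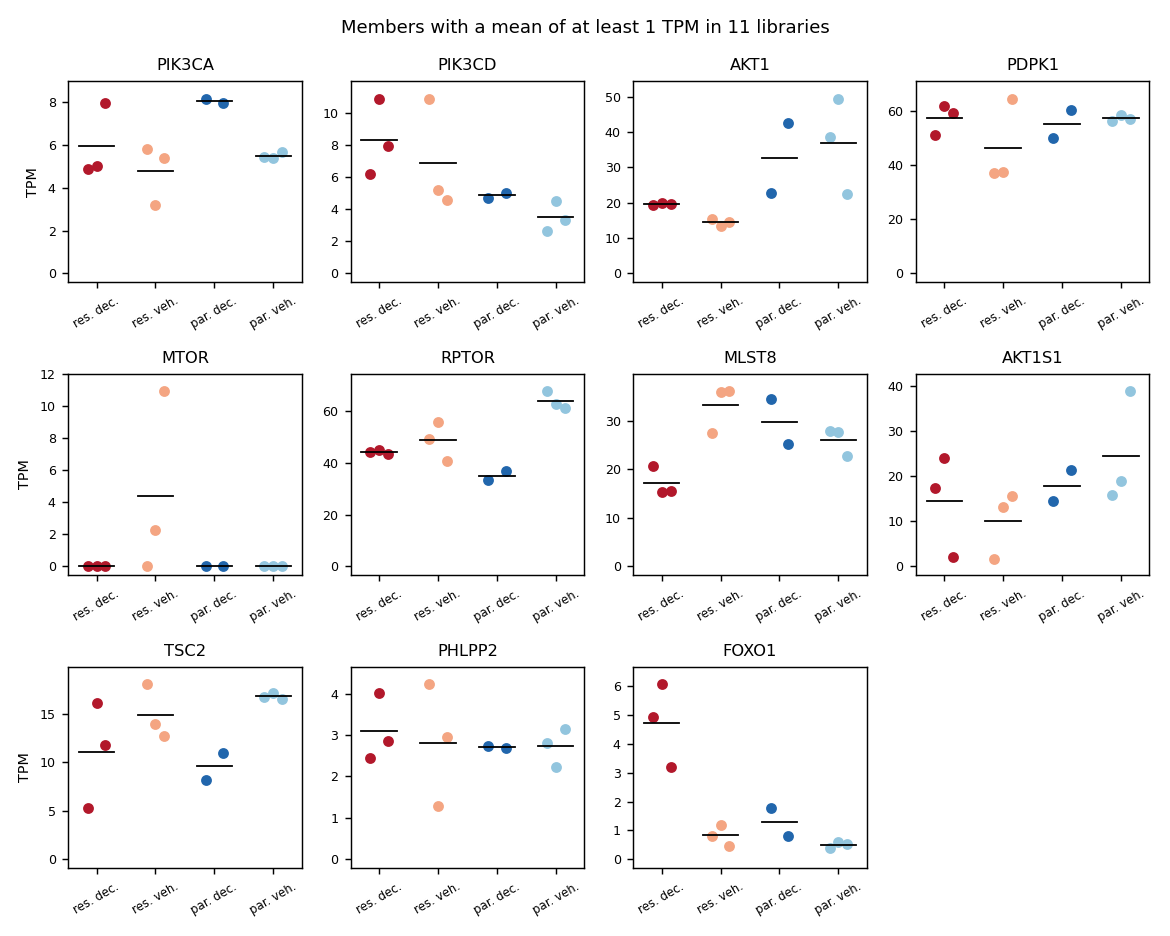
TPM in each library (points) and group means (lines) of the 11 genes with an 11-library mean of at least 1 TPM, by line and treatment, without parental decitabine replicate 3; res. is resistant, par. parental, dec. decitabine and veh. vehicle. FOXO1 lies above vehicle in the decitabine libraries of both lines, MLST8 below it in resistant cells, and RPTOR and TSC2 below it in parental cells.

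Decitabine against vehicle in parental cells asks the same of cells not selected with venetoclax. Without replicate 3 none of 9 tested members was called, and 1.86% of 8122 features were. An unadjusted p under 0.05 was reached by 2 of the 9 and by 18% of all features. PIK3CA, PIK3CD, RPTOR and TSC2 separated the groups, which are 4 of 9 members, against 39.4% of all features. The members' median log2 fold change was -0.06 against 0.21 for all features.

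RPTOR (chromosome 17, 80544819 to 80966371) had 33.4 and 36.9 TPM in decitabine libraries 1 and 2, against 67.7, 63.0 and 61.2 TPM in vehicle replicates 1, 2 and 3. Its log2 fold change was -0.85 (SE 0.13, 95% interval -1.18 to -0.51, limma adjusted p = 0.0623), and under median-ratio scaling it passed the threshold (-1.03, adjusted p = 0.0394). TSC2 (chromosome 16, 2047465 to 2089487) was at 8.20 and 10.96 TPM with decitabine, against 16.7, 17.1 and 16.5 TPM with vehicle (log2 fold change -0.76, SE 0.20, 95% interval -1.29 to -0.24, limma adjusted p = 0.163). RPTOR, a scaffold of mTOR complex 1, and TSC2, of an inhibitor of that complex, had lower listed values in decitabine 1 and 2. Neither was called in the comparison as reported. In replicate 3 RPTOR was at 106 TPM and TSC2 at 64.2 TPM, above every other library. With replicate 3 included the log2 fold change of RPTOR was -0.32 and that of TSC2 turned to 0.12 (adjusted p = 0.797 and 0.944).

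The antisense feature that overlaps the last 133 bases of RPTOR (chromosome 17, 80966239 to 80971213, minus strand) had 81.4, 150.2 and 95.6 TPM in resistant decitabine, against 33.5, 27.8 and 30.1 TPM in resistant vehicle libraries. In parental cells it had 42.1 and 28.7 TPM in decitabine 1 and 2, against 20.3, 21.3 and 16.9 TPM with vehicle, and was listed at 0 in replicate 3. It rose over both lines (log2 fold change 1.34, SE 0.23, limma adjusted p = 0.00672), and the call held without each of the 11 libraries but not with replicate 3 included (0.43, adjusted p = 0.751). RPTOR itself had a log2 fold change of -0.44 over both lines (SE 0.15, adjusted p = 0.0996), which is opposite in sign. The other antisense features at this end did not pass the threshold over both lines, with a log2 fold change of -0.69 for the more abundant one (chromosome 17, 80940418 to 80942033, adjusted p = 0.424) and 1.54 for the less abundant one (chromosome 17, 80960766 to 80961713, adjusted p = 0.4496). The less abundant one was listed at 0 in the 3 resistant decitabine libraries and had 85.9 and 38.7 TPM in parental decitabine 1 and 2 and 0.083 TPM in replicate 3. It was called between the lines under decitabine without replicate 3 (adjusted p = 0.0197), not with replicate 3 (0.655), and not without any 1 of the 5 libraries (0.0599 to 0.0801). In that comparison its parental values alone carried it past the filter on mean TPM.

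PIK3CA (chromosome 3, 179148114 to 179240093) had 8.17, 7.96 and 7.95 TPM in decitabine 1, 2 and 3, against 5.42, 5.39 and 5.66 TPM with vehicle. Decitabine 1 and 2 were thus above the vehicle libraries. Replicate 3 was above them too, but so it was for 27 of the 29 genes, and it is not counted as a further replicate. The log2 fold change of PIK3CA without replicate 3 was 0.48 (SE 0.21, 95% interval -0.07 to 1.03, limma adjusted p = 0.319). KCNMB3 opposite it had 10.5, 8.93 and 3.92 TPM in decitabine 1, 2 and 3, against 5.07, 4.83 and 5.66 TPM with vehicle. Over both lines KCNMB3 rose (log2 fold change 0.66, SE 0.14, limma adjusted p = 0.0161), while PIK3CA did not pass the threshold (0.36, SE 0.20, adjusted p = 0.279). The call of KCNMB3 was lost under quantile scaling (adjusted p = 0.106) and with replicate 3 included (0.581). In resistant cells PIK3CA overlapped, with 4.90, 4.999 and 7.96 TPM with decitabine, against 5.81, 3.21 and 5.39 TPM with vehicle (adjusted p = 0.68). The values of PIK3CA were likewise printed in full after they were seen.

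PIK3CD (chromosome 1, 9651732 to 9729114) had 4.72 and 5.02 TPM in decitabine 1 and 2, against 2.65, 4.52 and 3.33 TPM with vehicle, with an interval of -0.39 to 1.20 for its log2 fold change. MLST8 was at 34.5 and 25.2 TPM with decitabine, against 27.9, 27.8 and 22.8 TPM with vehicle, so its groups overlapped. AKT1 was at 22.8 and 42.4 TPM with decitabine, against 38.4, 49.4 and 22.5 TPM with vehicle, and its interval of -1.34 to 1.01 leaves its direction undetermined. PDPK1 was at 50.2 and 60.7 TPM with decitabine, against 56.3, 58.6 and 57.4 TPM with vehicle (log2 fold change -0.06, 95% interval -0.41 to 0.30). PHLPP2 had 2.73 and 2.69 TPM with decitabine, against 2.81, 2.22 and 3.15 TPM with vehicle (log2 fold change 0.00, 95% interval -0.75 to 0.75). AKT1S1 had 14.5 and 21.4 TPM with decitabine, against 15.7, 18.9 and 38.8 TPM with vehicle. The decitabine libraries of PIK3CD lay above its vehicle libraries. For MLST8, AKT1, PDPK1, PHLPP2 and AKT1S1 the decitabine values overlapped the vehicle values or lay on either side of them.

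Resistant against parental cells under vehicle asks what differed once cells tolerate venetoclax. TPM are scaled within each library, and the lines come from separate tables. None of 10 tested members was called, and 2.8% of 7761 features were. An unadjusted p under 0.05 was reached by 2 of the 10 and by 19.3% of all features. AKT1, AKT1S1 and RPTOR were lower and PIK3CD was higher in resistant cells without overlap, which are 4 of 10 members, against 28.1% of all features. The members' median log2 fold change was -0.19 against 0.11 for all features.

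AKT1 was at 15.5, 13.5 and 14.7 TPM in resistant vehicle a, b and c, against 38.4, 49.4 and 22.5 TPM in parental vehicle 1, 2 and 3 (log2 fold change -1.21, SE 0.31, 95% interval -1.97 to -0.46, limma adjusted p = 0.11). AKT1S1 (chromosome 19, 49869033 to 49878459) was at 1.58, 13.1 and 15.5 TPM in resistant cells, against 15.7, 18.9 and 38.8 TPM in parental cells (log2 fold change -1.49, SE 0.80, limma adjusted p = 0.361). Resistant values of both genes lay below all parental values, but the highest resistant and lowest parental AKT1S1 values nearly met. RPTOR was at 49.4, 55.9 and 40.9 TPM in resistant cells, against 67.7, 63.0 and 61.2 TPM in parental cells (log2 fold change -0.39, adjusted p = 0.251). PIK3CD was at 10.9, 5.21 and 4.60 TPM in resistant cells, against 2.65, 4.52 and 3.33 TPM in parental cells (log2 fold change 0.75, adjusted p = 0.344), where the lowest resistant and highest parental values nearly met. PHLPP1 was too low to be tested, at 0.99, 0.73 and 0.79 TPM in resistant vehicle libraries, against 0.19, 0.13 and 0 TPM in parental ones. With decitabine PHLPP1 was at 0.29, 0.11 and 0.20 TPM in resistant cells and at 0.07 and 0 TPM in parental replicates 1 and 2, so resistant vehicle libraries held its highest values among the 11.

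Under decitabine, resistant against parental cells without replicate 3 gave no call among 11 tested members, while 0.831% of 9029 features were called. An unadjusted p under 0.05 was reached by 2 of the 11 and by 12.1% of all features. PIK3R2 took the place of MTOR among the tested members, through its values in resistant decitabine a and parental decitabine 1. The groups did not overlap for 6 of the 11, against 32% of all features. FOXO1, PIK3CD and RPTOR were higher and PIK3CA, AKT1 and MLST8 lower in resistant cells. FOXO1 had a log2 fold change of 1.32 (SE 0.41, 95% interval 0.25 to 2.39, limma adjusted p = 0.315) and MLST8 one of -0.76 (SE 0.25, 95% interval -1.41 to -0.10, adjusted p = 0.343). With replicate 3 included the direction turned for FOXO1 (-0.36), PIK3CD (-0.29) and RPTOR (-0.19).

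Whether the lines responded differently to decitabine was tested by the difference of their responses. No member was called among 11, and 0.364% of 8505 features were. An unadjusted p under 0.05 was reached by 2 of the 11 and by 10.1% of all features. The response of RPTOR was 0.72 higher in resistant than in parental cells on the log2 scale (SE 0.21, 95% interval 0.25 to 1.20, limma adjusted p = 0.244). That of MLST8 was lower, with a difference of -1.08 (SE 0.30, 95% interval -1.77 to -0.40, adjusted p = 0.234). That of FOXO1 differed by 1.05 (SE 0.47, 95% interval -0.02 to 2.13, adjusted p = 0.505). RPTOR was thus lower with the drug mainly in parental values and MLST8 in resistant values, without a difference that passed the threshold over all features.

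**Figure D5:**
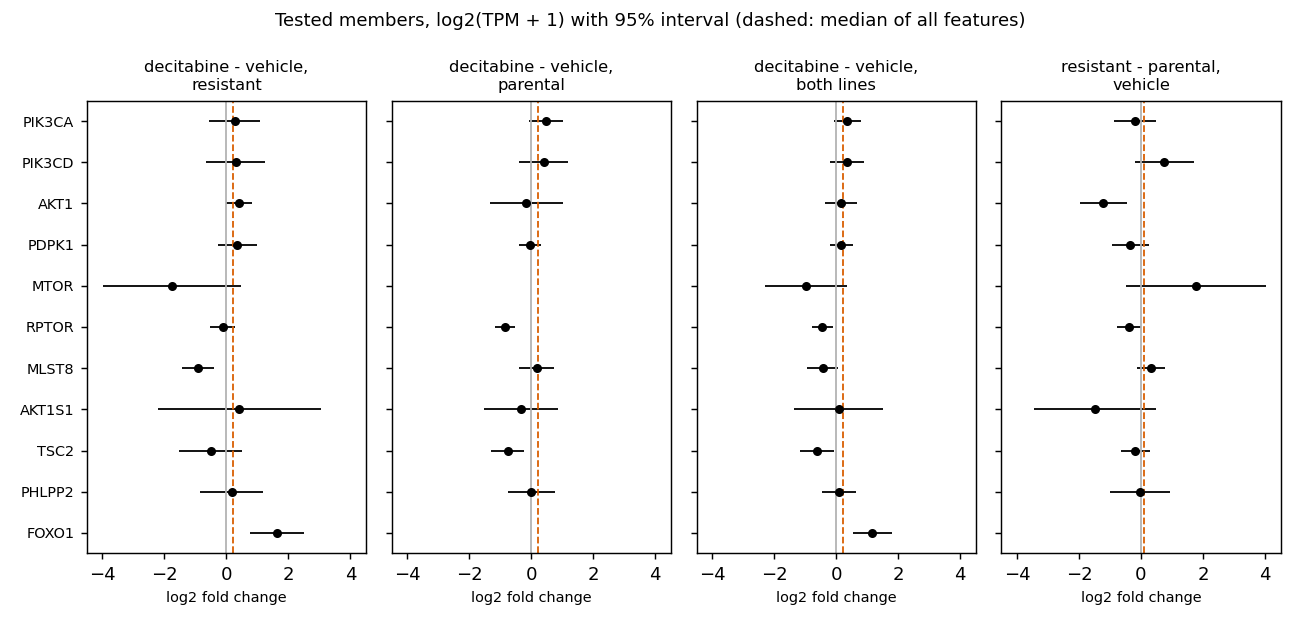
Log2 fold change with its 95% interval for the members tested in 4 comparisons, on the log2(TPM + 1) scale and without parental decitabine replicate 3; the dashed line is the median of all features tested. FOXO1 over both lines (1.17) is the only value that passed the threshold, and MTOR and AKT1S1 have the widest intervals.

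Other genes of the pathway were taken from 3 lists, of 22 upstream receptors and adaptors, 29 genes of nutrient and stress input to mTOR complex 1, and 26 partners and effectors of mTOR. Over both lines 22 of them were tested, and 2 rose and 1 fell with decitabine, which is near the 10.4% of all features called in this comparison. The 3 genes belong to the list of nutrient and stress input, of which 10 were tested, and no test sets that list apart. DDIT4, which restrains mTOR complex 1 through the TSC complex under stress, was at 27.5, 17.9 and 19.4 TPM in resistant decitabine libraries, against 98.2, 74.4 and 48.5 TPM in resistant vehicle libraries. In parental cells DDIT4 had 43.0, 25.2 and 42.2 TPM in decitabine 1, 2 and 3, against 101, 109.6 and 135 TPM in parental vehicle libraries. Decitabine libraries were thus under every vehicle library of their line. The same held for replicate 3, which differs in kind and is not counted as a further replicate. Exon overlaps were determined only for the members, so features opposite DDIT4 or other genes of the lists are not given. The log2 fold change of DDIT4 over both lines was -1.72 (SE 0.22, 95% interval -2.20 to -1.24, limma adjusted p = 0.00142), and the call held without each of the 11 libraries but not with replicate 3 included (-1.67, adjusted p = 0.0925). In resistant cells alone DDIT4 was the single call among 23 tested genes of the lists, near the background of 3.59% of all features. That fall (adjusted p = 0.0497) was lost with no filter (0.118), under quantile scaling (0.0559) and without any 1 library, with an adjusted p of 0.0917, 0.13 and 0.138 without decitabine a, b and c and 0.0956, 0.127 and 0.0577 without vehicle a, b and c. None of 21 tested genes of the lists was called in parental cells, where 1.86% of all features were.

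WDR24, a subunit of the GATOR2 complex that relays amino acid supply to mTOR complex 1, was at 9.85, 11.7 and 11.3 TPM in resistant decitabine, against 7.25, 9.12 and 5.83 TPM in resistant vehicle libraries. In parental cells WDR24 had 11.3, 11.7 and 19.3 TPM in decitabine 1, 2 and 3, against 4.44, 5.15 and 4.08 TPM with vehicle. It rose over both lines (log2 fold change 0.81, SE 0.19, limma adjusted p = 0.0229), and the call was lost without resistant vehicle c (0.0512) or parental decitabine 1 or 2 (0.0612 and 0.0668), under quantile scaling (0.11), with no filter (0.0624) and with replicate 3 included (0.387). LAMTOR4, a subunit of the lysosomal anchor Ragulator, had 277, 244 and 305 TPM in resistant decitabine, against 196, 223 and 222 TPM in resistant vehicle libraries. In parental cells LAMTOR4 had 249.6, 277 and 72.5 TPM in decitabine 1, 2 and 3, against 154, 141 and 221 TPM with vehicle. Without replicate 3, decitabine libraries were above vehicle libraries of the same line for WDR24 and LAMTOR4. Replicate 3, which differs in kind, was above the parental vehicle libraries for WDR24 and below them for LAMTOR4. LAMTOR4 rose over both lines (log2 fold change 0.48, SE 0.13, limma adjusted p = 0.044), a call lost under median-ratio scaling (0.122), quantile scaling (0.0536), with no filter (0.112) and with replicate 3 included (0.786). The call of LAMTOR4 was also lost without resistant decitabine a or c (0.0758 and 0.0949), resistant vehicle a, b or c (0.0829, 0.0613 and 0.0633), parental decitabine 1 or 2 (0.09 and 0.114) or parental vehicle 1 or 2 (0.0788 and 0.0686). Between the lines none of the tested genes of these lists was called, under vehicle (21 tested) or under decitabine (26 tested), nor was any of 22 for the difference of the responses.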

How the data were processed

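Each line has 1 deposited table of TPM, which the authors had scaled library by library. The unit was inferred from columns that sum to 1000000 and from StringTie, which the submitters' processing notes list beside HISAT2 and build hg38. For versions, annotation and counting strand, the answer is: not given in the sources used here. Libraries were stranded and from polyadenylated RNA, per the labels' protocols.

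Features were matched by name, since the identifier in the parental table belongs to the name beside it for only 9 of the 29 genes. The 1166 features with repeated names were left out. Positions and exon overlaps come from GENCODE 29 (GRCh38) and sequences from RefSeq (GRCh38.p14).

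Tests used limma (version 3.58.1, trend option, R 4.3.3) after a log2(TPM + 1) transform. Features averaging under 1 TPM in the libraries of a comparison were dropped, and p-values were adjusted by Benjamini-Hochberg over all others. Fold changes are on that scale and understate changes of low features. Exact zeros are written as listed at 0. The test was tried on simulated data. The 6 comparisons were fitted without parental decitabine replicate 3, and the fit with it is an alternative. Other alternatives were 2 scalings, 2 filters, a pseudocount of 0.1, the replicate number as a block and leaving out each library.

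Values of every library are given for members called, for those separating groups with a log2 fold change of at least 1, and for the highest and lowest of each role, opposite-strand features are named from a mean of 5 TPM, and other pathway genes where called. The members and lists were chosen with earlier results of these data known.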

Additional observations from a re-analysis of the deposited data

Results flagged for a closer look

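In parental decitabine replicate 3, which the comparisons leave out, 27 of the 29 genes were higher than in every parental vehicle library. PDPK1 (25.3 TPM in replicate 3, against 56.3 to 58.6 TPM in parental vehicle libraries) and INPP4B (0.02 TPM, against 0 to 0.16 TPM) were the exceptions. Antisense features made up 0.298% of its TPM, against 34.9% to 48.7% in the other libraries, and the part of this in the difference was not tested.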

How the results depend on the processing

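The count of called members stayed at 0 under each alternative for decitabine in resistant cells, both comparisons between lines and the difference of responses, and was 0 to 0 when each library was left out. In parental cells it was 1 under median-ratio scaling (RPTOR) and 0 under the other alternatives. Over both lines it was 1 as reported, 0 with no filter, with a mean of at least 5 TPM, with quantile scaling and with parental decitabine replicate 3 included, 2 with median-ratio scaling (RPTOR and FOXO1), and 0 to 1 without each library; at a mean of at least 5 TPM FOXO1 is no longer tested, and for the others the cause was not tested. Without resistant vehicle c the 1 called member was RPTOR. With replicate 3 included the log2 fold change reversed for TSC2 in parental cells (0.12), for PIK3CD (-0.29), RPTOR (-0.19) and FOXO1 (-0.36) between lines under decitabine, and for the larger antisense feature opposite PDPK1 over both lines, which was called at 0.33 and became -1.01; that call was also lost in 12 of 17 alternatives, such as median-ratio scaling (0.18, adjusted p = 0.246). The replicate block could be fitted in parental cells, where it called 0 members. Same-numbered libraries did not deviate together (correlations -0.01 and -0.01 without replicate 3), so the numbers were not taken as pairs. Resistant columns carry no number tied to the labels. Over both lines the median of all features was 0.21 on the log2 scale, -0.01 with quantile and 0.10 with median-ratio scaling. With 3 or fewer libraries a group and unknown depth, members listed near 0 could not be compared.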
